A study of Mus musculus with 34 samples.

Results

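The comparison described here is that of brown preadipocytes expressing the lysine-to-methionine mutant of histone H3.3 (K36M) with preadipocytes expressing wild-type H3.3 (WT), before differentiation was induced (Day 0, D0). A single RNA-Seq library of each was deposited, with expression as RPKM, the reads on a transcript scaled to its length and to the library's mapped reads. A gene was taken as a member when its RPKM was at least 1 in either library, where several transcripts share a gene the one most abundant on average over the 14 RNA-Seq libraries being used. This left 12239 of 23109 genes, 11335 of them at RPKM 1 or more in both libraries, 460 in WT only and 444 in K36M only. The minimum fell in a dense part of the distribution, with 148 members whose higher value was between 1 and 1.1 and 136 genes left out whose higher value was between 0.9 and 1.

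Both populations were made from preadipocytes of the interscapular brown fat of newborn C57BL/6J pups, immortalized with SV40 large T antigen, and per the labels both carry floxed alleles of the glucocorticoid receptor gene. By the study's methods, each population was infected with a retrovirus (pQCXIP) that constitutively drives FLAG-tagged H3.3, wild-type in one and K36M in the other, and was selected with puromycin. The protocol text in the labels speaks of infection with an empty vector or Cre, so the form of H3.3 is known from the sample titles and the study's methods. Cells were plated 4 days earlier and were confluent, with no hormones added, when Day 0 RNA was taken. Another Day 0 library, of the same kind of preadipocyte carrying a control short hairpin RNA (Ctrl), was used as a second control. Its counterpart with knockdown of the H3K36 methyltransferase gene *Nsd2* (*Nsd2* KD) was used for comparison, as were the K36M and WT libraries at Day 2 (D2), at Day 7 (D7) and in cells with ectopic PPARγ given DMSO or its ligand rosiglitazone (Rosi).

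H3.3 is the histone H3 variant that is deposited outside of DNA replication, by chaperones such as HIRA and ATRX-DAXX. Lysine 36 of H3 is methylated by Nsd1, Nsd2, Nsd3 and Ash1l up to the dimethyl state and by Setd2 to the trimethyl state over transcribed genes, and methylation there hinders PRC2, the complex that methylates lysine 27. The K36M form inhibits the lysine 36 methyltransferases and so lowers the mark on endogenous histones. Preadipocytes are fibroblast-like cells that secrete collagens, proteoglycans, growth factors and cytokines until hormones induce the PPARγ and C/EBPα program. The stretches below are the coding sequence of the endogenous mouse H3.3 genes around the codon for lysine 36 (codon 37 counting the start methionine), with that codon in capitals, to show where K36M lies. They were read from the transcripts of the annotation.
H3f3a: actggaggggtgAAGaaacctcatcgt
H3f3b: accggcggggtgAAGaagcctcaccgc

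Both genes have the same lysine codon and differ elsewhere in this stretch. Per-gene RPKM cannot show which codon was transcribed, and both populations carry ectopic H3.3, so these values do not check the K36M label. *H3f3a* was at RPKM 11.3 in WT, 9.41 in K36M and 16.4 in Ctrl, and *H3f3b* was at 164, 235 and 125. The *H3f3a* value is uncertain, since that gene has near-identical processed copies in the genome. *Nr3c1*, the glucocorticoid receptor gene named in the labels, was at 30.9 in WT and 25.7 in K36M, so it was expressed in both. *Nsd2* was at 19.9 in Ctrl and 5.85 in *Nsd2* KD.

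The totals of mapped reads were 21388064 in WT, 19859337 in K36M, 19757822 in Ctrl and 17428124 in *Nsd2* KD. A count of 3 reads on a transcript of 1 kb came to RPKM 0.140 in WT and 0.151 in K36M. All 8 preadipocyte markers were members and summed to 1322 in WT, 1093 in K36M and 1254 in Ctrl. Most of each sum was *Vim*, at 883.9, 823.9 and 967.5. The 6 brown adipocyte genes summed to 40.99 in WT, 22.3 in K36M and 15.6 in Ctrl, of which *Fabp4* made up 37.6, 18.5 and 14.8. Of the others, *Ucp1* and *Cidea* were at 0 in both WT and K36M. In WT and K36M the sums were between 0.490 and 0.934 for 4 endothelial genes, between 0.677 and 0.845 for 4 macrophage genes, between 0.600 and 1.38 for 6 skeletal muscle genes and between 0.723 and 1.89 for 3 Schwann cell genes. The 4 epithelial genes summed to 2.37 in WT, 3.59 in K36M and 0.120 in Ctrl, and the part of such cells in the results was not tested. Smooth muscle genes such as *Acta2* (529 in WT, 424 in K36M, 1193 in Ctrl) were abundant. In bulk RNA, fewer cells of a type and less RNA per cell cannot be told apart.

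With 1 library per condition there is no replicate check, and no test of the condition was possible. A gene is called higher or lower at an RPKM ratio of over 2. The 95% intervals given are exact (Clopper-Pearson) counting intervals of the log2 ratio, made from the whole reads recovered behind each RPKM. They compare these 2 libraries, not the conditions, and cover counting error only.

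At this threshold 615 genes were higher in K36M (5.02% of members) and 779 were lower (6.36%), together 11.4%. The genes called lower were the more abundant, with a median RPKM in the higher library of 5.10 against 3.09 for the genes called higher and 11.0 for all members. They carried 7.39% of all RPKM in WT and 2.41% in K36M, whereas the genes called higher carried 0.971% in WT and 2.45% in K36M. Over 4-fold, 173 genes were higher and 258 lower. The counting interval excluded an equal level for 571 of the 615 and 736 of the 779. Across the 11335 genes at RPKM 1 or more in both, the median log2 ratio was 0.09 and the SD across genes 0.577, and 80.1% of genes lay within 1.5-fold.

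**Figure D1:**
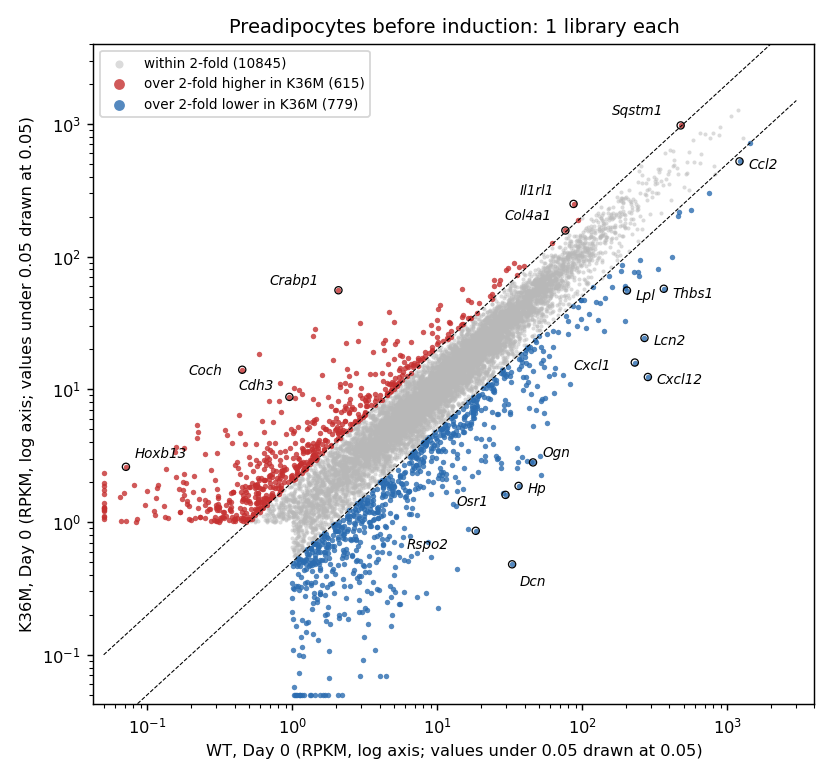
RPKM of each member gene in the WT library (x axis) and the K36M library (y axis) at Day 0, both on log axes, with dashed lines at 2-fold. Red points are the 615 genes over 2-fold higher in K36M and blue points the 779 over 2-fold lower, and the blue points reach much higher RPKM than most red points.

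The size of these counts has to be read against how far 2 control populations differed. By the study's account the Ctrl cells were infected with a lentiviral vector, and no ectopic H3.3 is described for them. The 2 controls thus differ in treatment as well. Ctrl against WT at Day 0 gave 864 genes over 2-fold higher (7.1%) and 1843 lower (15.1%), together 22.2%, so the control populations differed in more genes than K36M and WT did. K36M against Ctrl gave 2332 higher (19%) and 1173 lower (9.53%), together 28.5%. These comparisons share libraries. Of the 615 genes higher in K36M than in WT, 435 (70.7%) were also over 2-fold above Ctrl and 62 were below Ctrl. Of the 779 lower genes, 367 (47.1%) were over 2-fold below Ctrl as well, and 152 were above Ctrl. Ctrl values are therefore given beside most of the genes below. *Ddit3*, a transcription factor of the unfolded protein response, was at 275 in WT, 294 in K36M and 28.4 in Ctrl, and *Atf3* at 50.2, 60.7 and 1.18. These 2 genes were chosen after their values were seen.

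**Figure D2:**
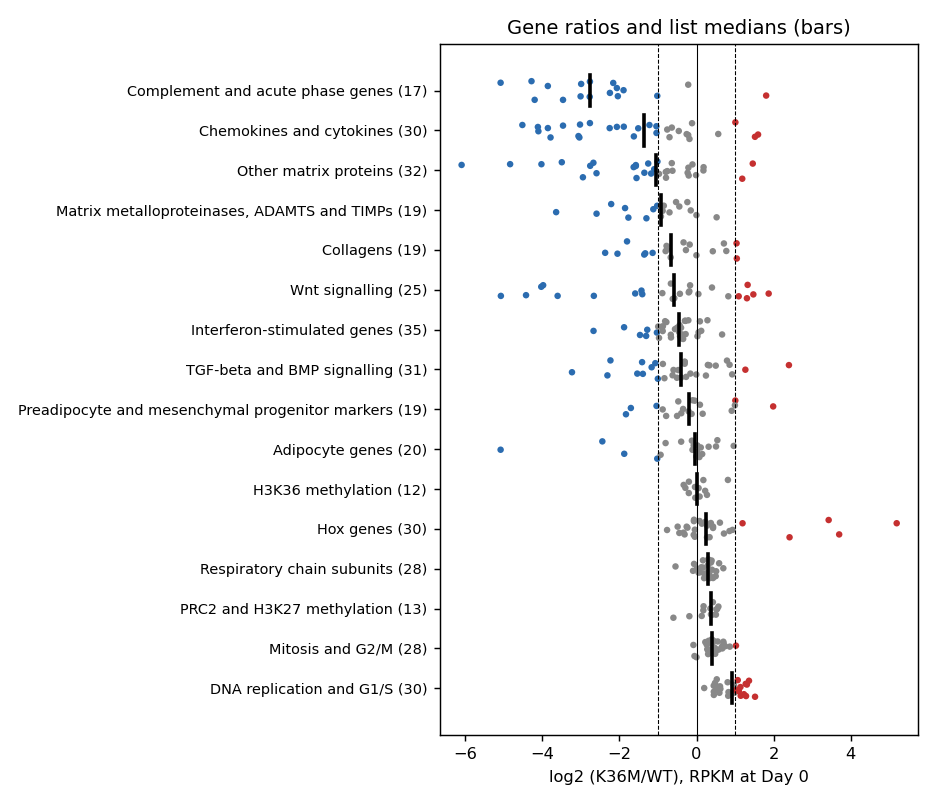
log2 of K36M over WT RPKM before differentiation (x axis) for the member genes of 16 lists, with the number of members in brackets, one point per gene, black bars at list medians and dashed lines at 2-fold. Complement and acute phase genes lie furthest to the left, with a median of -2.77, and the replication genes are all to the right of 0.

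The most one-sided lower group was that of complement and acute phase genes, plasma proteins made by the liver and also by fibroblasts and adipocyte precursors. Of 17 members, 15 were lower and 1 was higher, with a median log2 ratio of -2.77 against 0.09 for all members, and their summed RPKM was 1008 in WT, 176 in K36M and 100 in Ctrl. Haptoglobin (*Hp*, which binds free hemoglobin) was at 36.4 in WT and 1.87 in K36M, a 19.4-fold difference (log2 -4.28, interval -4.72 to -3.87), with Ctrl between at 11.4. Angiotensinogen (*Agt*) was at 41.7 in WT, 2.88 in K36M and 14.6 in Ctrl. *Serpina3n*, a secreted protease inhibitor, was at 16.4, 0.894 and 3.301. For these 3 genes K36M was the lowest of the libraries. The central complement gene *C3* was at 47.9 in WT, 7.04 in K36M and 7.78 in Ctrl, with *C4b* at 13.6, 1.71 and 4.53, *Cp* (ceruloplasmin) at 25.4, 3.16 and 6.56, *Serping1* (the C1 inhibitor) at 19.96, 4.21 and 5.48 and *C1s1*, a protease of the C1 complex, at 64.8, 14.5 and 11.9. For these genes WT stood above both other libraries, as it did for *Hp*, *Agt* and *Serpina3n*, and K36M was the lowest for all but *C1s1*. The member that was higher was *Cd55*, which protects cells from complement, at 0.592 in WT, 2.07 in K36M and 0.220 in Ctrl.

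Some genes of this group were higher in WT than in Ctrl by a wider margin. *Saa3*, serum amyloid A made in fat, was at 417 in WT and 99.6 in K36M (log2 -2.07, interval -2.16 to -1.97) but at only 8.86 in Ctrl. *Lcn2*, the iron-siderophore carrier lipocalin 2, was at 269 in WT, 24.4 in K36M and 3.56 in Ctrl. Both were thus lower in K36M than in WT and higher in K36M than in Ctrl. Over the group, 10 of the 15 genes called lower were below Ctrl in K36M, 5 were above it, and 13 were over 2-fold higher in WT than in Ctrl. The *Saa3* promoter is shown because it holds the letters TTGCNNAA, a C/EBP pattern read on either strand (capitals). The pattern was in 7 of the 11 group members with a promoter in the RefSeq table. It was in 9.71% of members and in 12.2% of all genes with a promoter. These are the 250 bases before the start site, GRCm38.p6, chr7:46715677-46715926, minus strand.
Saa3: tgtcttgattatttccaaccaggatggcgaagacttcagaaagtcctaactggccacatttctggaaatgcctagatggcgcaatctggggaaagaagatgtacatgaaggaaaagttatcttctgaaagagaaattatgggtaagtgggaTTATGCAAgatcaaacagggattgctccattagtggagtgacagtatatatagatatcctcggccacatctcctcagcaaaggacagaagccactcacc

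Chemokines and cytokines were the second group, and the list shares *Saa3*, *Lcn2* and *C3* with the one above. Of 30 members, 18 were lower and 3 were higher, with a median log2 ratio of -1.37, and the sum was 4234 in WT, 2138 in K36M and 886 in Ctrl. *Cxcl12*, which holds CXCR4-bearing blood and progenitor cells in tissue, was at 284 in WT, 12.4 in K36M and 169 in Ctrl. That is a 22.9-fold difference between WT and K36M (log2 -4.52, interval -4.66 to -4.38), and K36M lay far below both controls. *Cxcl1*, a neutrophil attractant, was at 231 in WT, 15.9 in K36M and 32.96 in Ctrl. *Il6* was at 28.6, 1.67 and 4.05. *Ccl2*, the monocyte attractant and one of the most abundant transcripts of the cells, was at 1216 in WT, 522 in K36M and 253 in Ctrl, so that K36M lay between the controls. The long pentraxin *Ptx3*, a secreted pattern-recognition protein outside these lists, followed the same order, at 754, 302 and 128. *Il1rn*, the IL-1 receptor antagonist and likewise outside the lists, was at 10.1 in WT, 0.225 in K36M and 7.15 in Ctrl, which is a 45.0-fold difference between WT and K36M.

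Not every gene of the group was lower. *Il1rl1*, the receptor for IL-33, was at 87.2 in WT and 249 in K36M (log2 1.52, interval 1.47 to 1.56), against 17.7 in Ctrl. *Ptgs2*, the inducible cyclooxygenase, was at 23.9, 48.1 and 5.90, and *Il11* at 1.01, 3.06 and 0.599. All 3 were highest in K36M. *Il33*, the ligand of Il1rl1, was at 4.11 in WT, 1.11 in K36M and 0.519 in Ctrl. Of the 18 genes called lower, 9 were below and 9 above Ctrl in K36M, and against Ctrl the list median was 1.02, on the other side of 0. The *Cxcl1* promoter is given as the example of the NF-κB pattern (GGGA, any base, TTTCC), in capitals, which was found on either strand in 4 of the 21 group members with a promoter and in 0.466% of all genes with one. It is at chr5:90890995-90891244, GRCm38.p6, plus strand.
Cxcl1: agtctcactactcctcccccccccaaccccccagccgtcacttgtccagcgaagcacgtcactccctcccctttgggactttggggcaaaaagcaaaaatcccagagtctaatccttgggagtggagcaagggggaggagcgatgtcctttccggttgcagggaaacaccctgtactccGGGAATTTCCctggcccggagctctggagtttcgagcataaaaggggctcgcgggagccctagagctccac

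**Figure D3:**
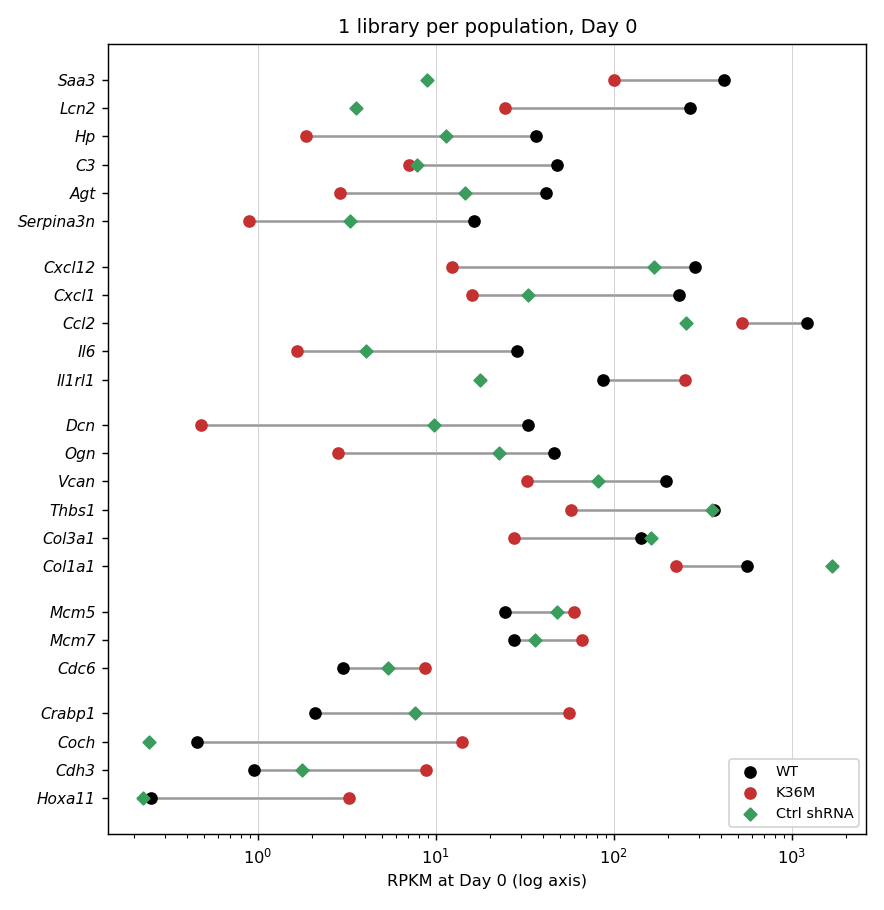
RPKM at Day 0 on a log axis in the WT (black), K36M (red) and Ctrl (green diamonds) libraries for 24 genes in 5 groups, with a grey line from WT to K36M. For *Cxcl12*, *Dcn* and *Hp* K36M is the lowest of the libraries, whereas for *Saa3*, *Lcn2* and *Ccl2* the Ctrl library is lower still.

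Extracellular matrix genes were lower in K36M and, unlike the chemokines, mostly lay below both controls. Of 32 matrix proteins other than collagens, 17 were lower and 2 were higher, with a median log2 ratio of -1.06, and 16 of the 17 were below Ctrl. Decorin (*Dcn*), a small proteoglycan that binds collagen fibrils and TGF-β, had the lowest ratio of all genes at RPKM 10 or more. It was at 32.8 in WT and 0.481 in K36M, from 1325 and 18 reads, a 68.3-fold difference (log2 -6.09, interval -6.85 to -5.43), and at 9.77 in Ctrl. Some other small leucine-rich proteoglycans had the same order, with *Ogn* (osteoglycin) at 45.8 in WT, 2.82 in K36M and 22.6 in Ctrl, and *Prelp* at 8.39, 0.294 and 3.36. For *Fmod* K36M was also the lowest, at 0.229, but Ctrl (7.56) was above WT (1.77). *Aspn*, *Omd* and *Ogn*, which are neighbours on chromosome 13, were all lower, as were the neighbours *Prelp* and *Fmod* on chromosome 1. Biglycan (*Bgn*) was the most abundant gene called lower, at 1446 in WT, 716 in K36M and 1047 in Ctrl.

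Among the large matrix proteins, versican (*Vcan*) was at 196 in WT, 32.5 in K36M and 81.1 in Ctrl. Thrombospondin 1 (*Thbs1*), which activates latent TGF-β, was at 366, 57.2 and 356, and *Thbs2* at 458, 202 and 279. Fibrillin 1 (*Fbn1*) was at 184, 77.4 and 122. Of 19 collagen genes, 6 were lower and 2 higher. *Col3a1* was at 142 in WT and 27.4 in K36M, *Col1a1* at 560 and 223, *Col6a1* at 335 and 80.9 and *Col6a2* at 248 and 71.0. In Ctrl these fibrillar and microfibrillar collagens were at or above WT except *Col6a2*, with *Col1a1* at 1678. Some basement membrane genes went the other way, although *Col4a6* and *Lama4* were lower, with log2 ratios of -1.36 and -1.63. *Col4a1* was at 76.6 in WT and 157 in K36M (log2 1.04, interval 1.01 to 1.07) and its head-to-head neighbour *Col4a2* at 61.7 and 127, while *Lama5*, the laminin α5 chain, was at 6.27 and 17.2. Fibulin 5 (*Fbln5*), which organizes elastic fibres, was also higher, at 36.9 and 84.0. In Ctrl the 4 genes called higher were lower than in K36M.

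Of 19 matrix proteases and their inhibitors, 8 were lower and 0 were higher. The aggrecanase gene *Adamts5* was at 38.6 in WT, 3.09 in K36M and 15.2 in Ctrl, *Adamts1* at 58.8, 12.7 and 26.3 and the gelatinase gene *Mmp2* at 80.1, 32.6 and 51.5. *Timp3*, a matrix-bound inhibitor, was at 189, 86.9 and 32.8, so it was higher in K36M than in Ctrl. *Pappa*, a metalloprotease that cleaves IGF-binding proteins, was at 13.8 in WT, 0.443 in K36M and 3.42 in Ctrl, and *Igfbp3* at 45.6, 5.32 and 25.4.

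Wnt signalling genes were called in both directions. Of 25 genes of Wnt signalling, 9 were lower and 5 higher, and the 9 were all over 2-fold below Ctrl as well. The R-spondin gene *Rspo2*, which amplifies Wnt signals, was at 18.4 in WT, 0.859 in K36M and 6.198 in Ctrl (log2 against WT -4.42, interval -4.83 to -4.04). The secreted Wnt antagonists *Sfrp1* and *Sfrp2* were at 51.7 and 44.4 in WT, 8.17 and 2.82 in K36M, and 44.0 and 96.4 in Ctrl. *Ccn5*, a matricellular protein of preadipocytes, was at 50.9, 3.12 and 49.96. The genes called higher were *Wnt10b*, *Wnt11*, *Lef1*, *Tcf7* and *Nkd2*, all between 1.74 and 5.75 in K36M. *Wnt10b*, a ligand that restrains adipogenesis, was at 0.903 in WT, 2.51 in K36M and 0.659 in Ctrl. Fibroblast growth factor 10 (*Fgf10*), a mesenchymal signal needed for fat formation, was at 5.55 in WT, 0.242 in K36M and 1.51 in Ctrl, and *Fgf21* was higher, at 9.18, 26.6 and 0.107.

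Of 31 genes of TGF-β and BMP signalling, 9 were lower and 2 higher. The BMP target genes *Id3* and *Smad6* were at 98.4 and 9.96 in WT, 33.9 and 3.80 in K36M, and 172 and 34.5 in Ctrl, and follistatin (*Fst*), an activin antagonist, was at 11.4, 2.31 and 16.3. *Ltbp4*, a binding protein of latent TGF-β, was higher, at 4.25 in WT, 22.4 in K36M and 4.12 in Ctrl. The connective tissue growth factor gene *Ccn2* was at 106, 29.2 and 176. Interferon-stimulated genes were lower in 6 of 35, among them *Ifit3*, at 51.9 in WT and 21.0 in K36M, and *Gbp2*, at 54.4 and 14.8. Their Ctrl values were 24.3 and 8.74, and the list median, -0.45 against WT, was 1.09 against Ctrl. None of 16 genes of MHC class I presentation passed 2-fold, although *H2-Q6*, a nonclassical class I gene outside that list, was at 4.62 in WT, 38.5 in K36M and 0.877 in Ctrl. It is one of several near-identical copies (*H2-Q7* was at 2.76, 13.4 and 0.848), so its reads cannot be assigned with certainty.

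Markers of the preadipocyte itself moved in both directions. *Pdgfra*, the PDGF receptor that marks adipocyte precursors, was at 29.5 in WT, 8.30 in K36M and 22.9 in Ctrl, and the stem cell antigen gene *Ly6a* at 197, 60.5 and 67.7. *Thy1* and *Cd24a*, surface antigens also used to sort precursors, were at 18.8 and 2.06 in WT, 37.7 and 8.18 in K36M, and 41.3 and 4.93 in Ctrl. Of 19 such markers, 3 were lower and 2 higher. *Osr1*, a transcription factor of embryonic connective tissue, was at 29.6 in WT, 1.60 in K36M and 22.2 in Ctrl, an 18.5-fold difference from WT.

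Most adipogenic transcription factors were within 2-fold. *Pparg* was at 13.4 in WT, 11.5 in K36M and 12.5 in Ctrl (log2 K36M/WT -0.21, interval -0.41 to -0.02). *Cebpa*, its partner, was at 6.64, 6.33 and 14.7 (log2 -0.07, interval -0.29 to 0.15). *Cebpb* was at 137 in WT, 107 in K36M and 79.9 in Ctrl. Of 18 factors, 1 was lower and 1 higher. The lower was *Cebpd*, an early C/EBP factor that is also induced in the acute phase, at 42.8 in WT, 7.197 in K36M and 25.3 in Ctrl (log2 -2.57, interval -2.75 to -2.40). The higher was *Klf5*, at 3.33, 8.38 and 1.35. Of 17 regulators that oppose adipogenesis, *Zfp521* (7.98 in WT, 2.86 in K36M and 5.04 in Ctrl) and *Sox9* (17.4, 7.43 and 11.2) were lower and *Gli2* (1.19, 3.303 and 2.91) was higher.

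Of 30 listed adipocyte genes, 20 reached RPKM 1 in WT or K36M before induction, and 4 of these were lower in K36M and 0 higher. Lipoprotein lipase (*Lpl*) was at 204 in WT, 55.5 in K36M and 22.2 in Ctrl, and the fatty acid carrier gene *Fabp4* at 37.6, 18.5 and 14.8. *Adipoq* was at 1.56 and 0.286 and adipsin (*Cfd*) at 3.70 and 0.109, the latter from 73 and 2 reads (log2 -5.08, interval -8.16 to -3.18). For all 4 the Ctrl library was lower than K36M. *Scd1*, a fatty acid desaturase, was at 25.5 in WT and 28.2 in K36M and the insulin receptor substrate gene *Irs2* at 7.83 and 9.74. *Ppargc1a* was below the minimum, at 0.210 and 0.0467. The lipid droplet coat gene *Plin2* just missed the threshold upward, at 99.7 in WT, 195 in K36M and 19.5 in Ctrl. Among brown fat regulators, *Prdm16* was at 1.36 in WT, 3.12 in K36M and 0.600 in Ctrl.

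The most uniform higher group was DNA replication and the G1/S transition. All 30 genes were above 0 in log2 ratio, 12 were over 2-fold higher, and the median was 0.93 against 0.09 for all members. The helicase genes *Mcm5* and *Mcm7* were at 24.6 and 27.3 in WT and 59.9 and 66.1 in K36M (log2 1.29, interval 1.20 to 1.37, for *Mcm5*). *Cdc6*, which loads the helicase, was at 3.01 and 8.63 and *Rrm2*, a subunit of ribonucleotide reductase, at 39.5 and 84.5. The Ctrl values lay between those of WT and K36M for these genes, with *Mcm5* at 47.8 and *Cdc6* at 5.37. Of the 12, 11 were above Ctrl in K36M but 2 by over 2-fold, and the list median against Ctrl was 0.47. The 28 genes of mitosis had a median of 0.41, with 1 over 2-fold, and were lower in K36M than in Ctrl, by a median of -0.82. *Ccnd1*, cyclin D1 of the G1 phase, was at 23.9 in WT, 52.0 in K36M and 17.6 in Ctrl. The p15 inhibitor gene *Cdkn2b* was at 62.9, 20.8 and 32.99, while *Cdkn1a* and *Cdkn2a* were within 2-fold. *Asf1b*, a histone chaperone of replicating cells, was at 8.27 in WT, 19.3 in K36M and 17.5 in Ctrl.

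The *Mcm5* promoter is shown as the example of the E2F pattern TTTNGCGC, searched on either strand, whose 2 overlapping matches are in capitals. The pattern was in 9 of 24 replication genes with a promoter (37.5%), in 2.97% of members and in 1.57% of all genes with one. The sequence is at chr8:75109259-75109508, GRCm38.p6, plus strand.
Mcm5: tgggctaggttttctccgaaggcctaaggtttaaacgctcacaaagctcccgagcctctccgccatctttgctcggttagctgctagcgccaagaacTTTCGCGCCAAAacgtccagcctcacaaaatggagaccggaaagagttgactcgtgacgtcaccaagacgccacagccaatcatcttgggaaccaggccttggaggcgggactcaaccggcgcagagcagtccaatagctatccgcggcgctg

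Single genes with high ratios were of varied function and were low in WT. Cochlin (*Coch*), a matrix protein known from the inner ear, was at 0.452 in WT, 14.05 in K36M and 0.245 in Ctrl (log2 K36M/WT 4.96, interval 4.37 to 5.61). Cellular retinoic acid binding protein 1 (*Crabp1*) was at 2.08, 55.8 and 7.58, and its relative *Crabp2* at 1.403, 5.87 and 0.337. For these 3 genes K36M was above both controls. On the same side were *Car8*, a carbonic anhydrase relative (0.817 in WT, 11.1 in K36M and 0.522 in Ctrl), *Slc7a3*, a cationic amino acid transporter (2.92, 31.8 and 0.640), *Adcyap1r1*, the PACAP receptor (2.36, 22.2 and 2.01), and *Uchl1*, a neuronal deubiquitinase (2.85, 23.3 and 3.84). *Prl2c3*, of the proliferin family, was at 1.43 in WT and 28.3 in K36M but 43.1 in Ctrl, and its reads are shared with near-identical copies. Adhesion genes included *Cdh2* (N-cadherin), at 10.4 in WT, 43.2 in K36M and 31.7 in Ctrl, *Cdh3* (P-cadherin), at 0.955, 8.77 and 1.77, and *Alcam*, at 4.31, 19.7 and 2.58, whereas *Cdh11*, the mesenchymal cadherin, was lower, at 26.4, 6.53 and 29.0. Among genes called higher, those with the largest absolute differences were *Sqstm1*, the autophagy receptor p62, at 478 in WT, 974 in K36M and 109 in Ctrl, then *Il1rl1* and then *Txnrd1*, thioredoxin reductase, at 93.9, 189 and 62.4.

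Some posterior Hox genes, which specify position along the body axis and lie in PRC2-regulated clusters, were among the higher genes. Of 30 Hox genes, 5 were higher and 0 lower, with a median log2 ratio of 0.25 against WT and -0.02 against Ctrl. The 5 came from low levels. *Hoxa11* was at 0.250 in WT, 3.25 in K36M and 0.226 in Ctrl (log2 3.70, interval 2.85 to 4.69), *Hoxa10* at 0.433, 2.31 and 0.679 and *Hoxa9* at 0.165, 1.77 and 0.713. *Hoxb13* was at 0.0712, from 2 reads, and 2.61, from 68 reads (log2 5.19, interval 3.29 to 8.27). *Hoxd9* was at 1.25 and 2.85. All 5 were over 2-fold above Ctrl. Abundant Hox genes were close to equal, such as *Hoxb9*, at 53.2 in WT, 62.4 in K36M and 32.1 in Ctrl. *Hoxa9*, *Hoxa10*, *Hoxa11* and the antisense transcript *Hoxa11os* formed the longest run of adjacent members called higher, 4 genes. Each of the 4 was below RPKM 1 in WT and so was a member through its K36M value. *Hoxa11* and *Hoxa11os* overlap, and strand was not stated in the sources used, so their reads cannot be told apart. Of 32 other developmental homeobox, T-box and forkhead genes listed, 6 were higher and 7 lower. The limb and heart factors *Tbx5* and *Gata4* were at 0.403 and 1.25 in WT, 2.71 and 5.001 in K36M, and 1.01 and 1.79 in Ctrl. *Foxf1*, of splanchnic mesoderm, was at 1.45, 6.02 and 0.477, while *Foxc1* was at 17.7, 6.61 and 17.4 and *Irx1* at 52.3, 15.7 and 10.7.

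The enzymes of the mark itself were near equal. None of the 12 genes of H3K36 methylation passed 2-fold, and their median log2 ratio was 0.01. *Nsd2* was the most different, at 17.5 in WT, 30.9 in K36M and 19.9 in Ctrl (log2 0.81, interval 0.74 to 0.89). *Nsd1* was at 18.3 in WT and 21.4 in K36M, *Setd2* at 18.1 and 20.5 and *Ash1l* at 19.9 and 19.5. None of 13 genes of PRC2 and H3K27 methylation passed 2-fold, but 11 were above 0 in log2 ratio and 2 below. Their median was 0.38 against 0.09 for all members. *Ezh2*, the methyltransferase, was at 15.4 in WT and 19.99 in K36M and its partner *Suz12* at 24.96 and 35.4. None of 28 respiratory chain subunits and none of 14 reference genes passed it, and *Actb* was at 1179 in WT and 1283 in K36M.

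Promoter composition was compared between called and other members, as a description. The 300 bases around the start site (250 before and 50 after, RefSeq, GRCm38.p6) held a median of 14 CpG in the 526 genes called lower that had a promoter, 17 in the 403 called higher and 22 in the 8422 not called. At least 10 CpG were found in 62.4% of the lower, 72.2% of the higher and 88.6% of those not called. The TATAAA letters, on either strand, were in 15.97% of the lower, 9.93% of the higher and 7.78% of those not called. Coverage was uneven, since a promoter was found for 67.5% of the lower and 65.5% of the higher genes but 77.7% of those not called, and called genes also had lower RPKM. For the 30 chemokine and acute phase genes called lower, 19 had a promoter, with a median of 3 CpG, and 9 of these (47.4%) held TTGCNNAA, against 9.71% of members and 12.2% of all promoters. The NF-κB pattern was in 2 of the 19 (10.5%), against 0.481% of members. These are matches of letters only, and the patterns were chosen with the genes known.

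Runs of at least 3 adjacent members called the same way were counted along the RefSeq order, and some of them were gene families. The 3 longest had 5 genes each. They were *Rassf6*, *Cxcl5*, *Ppbp*, *Cxcl3* and *Cxcl1* on chromosome 5, *Samd12*, *Tnfrsf11b*, *Colec10*, *Ccn3* and *Enpp2* on chromosome 15, and *Serpina3c*, *Serpina3f*, *Serpina3h*, *Serpina3i* and *Serpina3n* on chromosome 12. Copies within the *Serpina3* family are alike, so their reads can be divided among neighbours. In the chromosome 5 run *Cxcl5*, another neutrophil attractant, was at 35.3 in WT, 2.56 in K36M and 5.08 in Ctrl.

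The other K36M and WT pairs share no library with Day 0, but are other conditions and not replicates. By the study's account, the cells with ectopic PPARγ also had a further retrovirus and hygromycin selection, and were treated while sub-confluent. Genes higher at Day 0 were often higher again. Of the 615, 215 (35.0%) were over 2-fold higher at Day 2 and 252 (41.0%) at Day 7. With ectopic PPARγ, 244 (39.7%) were higher with DMSO and 277 (45.0%) with Rosi. In the same order of pairs, 396, 476, 442 and 460 of the 615 were at RPKM 1 or more in either library. Among all Day 0 members at that level in each pair, 10.1%, 10.7%, 4.24% and 6.36% were over 2-fold higher. As shares of the genes called higher in each of those pairs, the genes also called higher at Day 0 made up 16.1%, 17.1%, 41.0% and 32.9%. The calls in those pairs were 11.2%, 11.7%, 5.09% and 7.02% of their own members. The opposite call was made for between 8 and 49 of the 615. Altogether 186 genes (30.2%) were over 2-fold higher in all 5 pairs, against 249 members (2.03%) over 2-fold higher in the other 4 pairs. Unlike the counts by pair, these set no RPKM minimum in the other 4 pairs, so ratios from few reads are included. The 186 were low in abundance, with a median RPKM of 0.654 in WT and 2.87 in K36M, and 157 were over 2-fold above Ctrl at Day 0.

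Ranked by their smallest ratio over the 5 pairs, the leading higher genes at RPKM 10 or more included *Crabp1*, *Coch*, *Rpp25* and *Rpl39l*. The log2 ratio of *Coch* was between 3.48 and 7.21. *Rpp25*, a subunit of RNase P, had log2 ratios from 2.41 to 4.75. *Rpl39l*, a ribosomal protein paralog, had ratios from 2.17 to 3.46. *Crabp1* was at 0 in WT at Day 7 and 19.3 in K36M, and its log2 ratio in the other pairs was between 4.35 and 6.89. *Cdh3* was likewise higher in all 5 pairs, by 3.20 to 6.77. *Hoxa11*, *Hoxa10* and *Hoxb13* had log2 ratios of at least 2.31 in each pair.

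**Figure D4:**
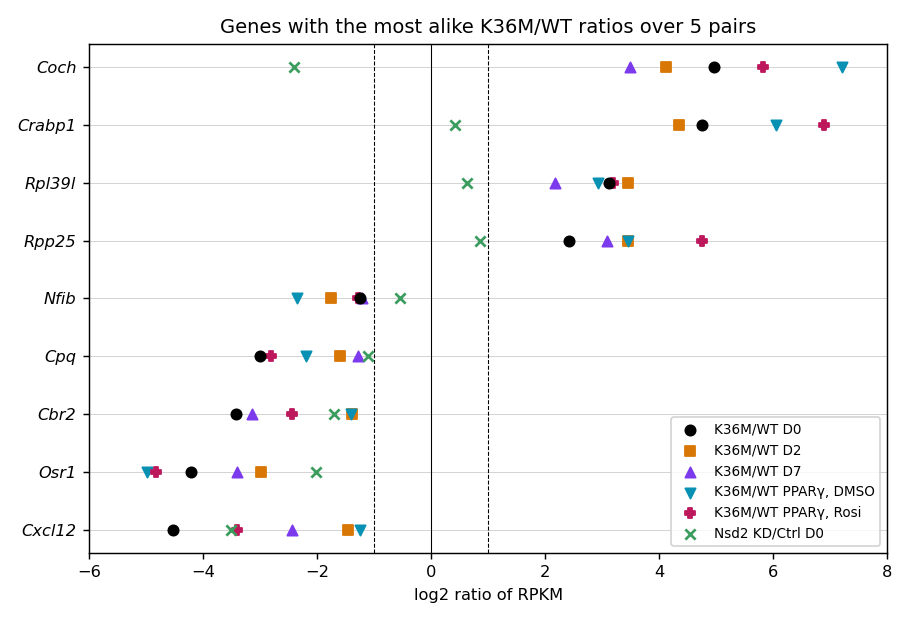
log2 ratio of RPKM (x axis) in 5 K36M and WT pairs and in *Nsd2* KD against Ctrl at Day 0 (green crosses) for 4 high and the 5 lowest genes by their smallest ratio over the pairs, with dashed lines at 2-fold. All K36M ratios of a gene lie on one side of its dashed line, and the *Nsd2* KD value of *Crabp1*, *Rpl39l* and *Rpp25* lies within 2-fold. *Crabp1* at Day 7 is not drawn because WT was at 0.

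Genes lower at Day 0 were less uniform. Of the 779, 131 (16.8%) were over 2-fold lower at Day 2 and 129 (16.6%) were over 2-fold higher there, 194 (24.9%) were lower and 139 (17.8%) higher at Day 7, and 215 (27.6%) and 405 (52.0%) were lower with DMSO and Rosi, where 13 and 11 were higher. Those at RPKM 1 or more in either library of a pair numbered 571, 713, 543 and 598 of the 779. Among all Day 0 members at that level in each pair, 3.74%, 6.66%, 2.87% and 11.2% were lower. Of the pairs' own members, 4.37%, 8.46%, 3.11% and 12.1% were lower. The Day 0 genes made up 25.1%, 18.2%, 59.1% and 28.0% of the genes called lower in these pairs. Genes over 2-fold lower in all 5 pairs numbered 59 (7.57%), against 71 members (0.580%) in the other 4, again with no RPKM minimum in those 4. Across genes at RPKM 1 or more in both libraries of each pair, Pearson's r of the Day 0 log2 ratio with that at Day 2 was 0.068 and with that at Day 7 0.062, against 0.496 with DMSO and 0.557 with Rosi, over 10509 to 10946 genes, which are not independent of each other.

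The 5 lowest by the same ranking were *Osr1*, *Cbr2*, *Cpq*, *Cxcl12* and *Nfib*. *Osr1* had log2 ratios from -2.98 to -4.98 over the pairs. *Cbr2*, a lung-type carbonyl reductase, was at 27.4 in WT and 2.56 in K36M at Day 0, and *Cpq*, a secreted carboxypeptidase, at 19.2 and 2.38. *Nfib*, a transcription factor, was at 24.4 and 10.2 and had log2 ratios from -1.21 to -2.36. *Cxcl12* was over 2-fold lower in each pair, with log2 ratios of -1.46 at Day 2, -2.44 at Day 7, -1.25 with DMSO and -3.40 with Rosi.

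For some matrix and signalling genes the order of the libraries turned at Day 2. Of the 17 matrix genes lower at Day 0, 6 were over 2-fold higher at Day 2 and 1 was lower. *Col1a1* went from 560 at Day 0 to 52.1 at Day 2 and 410 at Day 7 in WT, and from 223 to 147 and 478 in K36M. WT thus had the wider swing, and K36M was the higher library at Day 2. *Thbs2* was at 458, 15.7 and 104 in WT and 202, 55.6 and 206 in K36M. *Ccn2* was at 106, 1.11 and 15.7 in WT and 29.2, 10.7 and 25.8 in K36M. *Sfrp1* was at 51.7, 1.95 and 17.2 in WT and at 8.17, 18.8 and 213 in K36M, a log2 ratio of 3.63 at Day 7. *Ccl2* was at 1216, 12.8 and 229 in WT and 522, 72.3 and 1487 in K36M. In contrast *Cxcl12* was at 284, 41.6 and 463 in WT and 12.4, 15.2 and 85.2 in K36M, below WT each day.

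**Figure D5:**
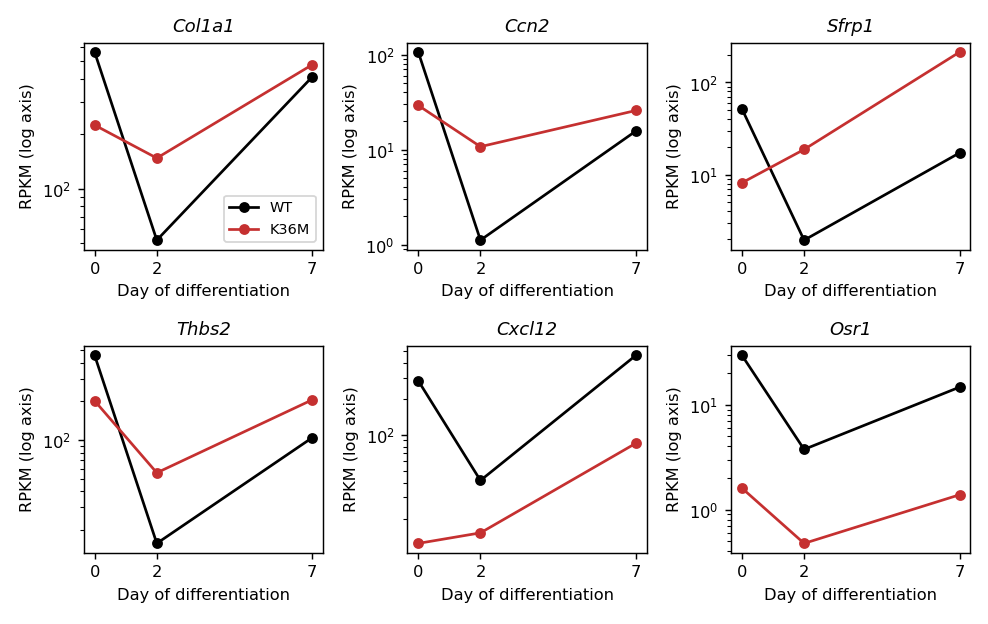
RPKM on log axes in WT (black) and K36M (red) at Days 0, 2 and 7 of differentiation for 6 genes lower in K36M at Day 0, 1 library per point. *Col1a1*, *Ccn2*, *Sfrp1* and *Thbs2* cross between Day 0 and Day 2, and *Cxcl12* and *Osr1* stay below WT.

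The replication genes were seldom called in the other pairs. Of its 12 genes called higher at Day 0, 0 were over 2-fold higher at Day 2, at Day 7 or with DMSO and 1 (*Rrm2*) with Rosi, and the list medians in those pairs were 0.17, -0.16, -0.06 and 0.09. Of the 5 Hox genes, 3 were over 2-fold higher at Day 2, 4 at Day 7 and 5 in each PPARγ pair.

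*Nsd2* KD against Ctrl at Day 0 gave 792 genes higher (6.61%) and 1295 lower (10.8%), in libraries not used for K36M and WT. Of the 779 genes lower in K36M, 272 (34.9%) were also lower in *Nsd2* KD and 73 were higher. The 272 were 21.0% of the genes lower in the knockdown. Of the 615 higher genes, 114 (18.5%) were also higher and 59 lower, and the 114 were 14.4% of the genes higher in the knockdown. At RPKM 1 or more in either library of the knockdown pair were 658 of the 779 and 364 of the 615. Among all Day 0 members at that level in the pair, 10.5% were lower and 5.51% higher. Of all list members measured at RPKM 1 or more in the knockdown pair, 13 of 15 complement and acute phase genes were lower in the knockdown. So were 10 of 22 chemokine and cytokine genes, 17 of 31 matrix genes and 9 of 22 Wnt genes. In the same order, 1, 4, 2 and 3 genes were higher. Lists not lower in K36M were lower too. Of 28 mitosis genes, 20 were lower and 0 higher, with a median log2 ratio of -1.32, against 0.41 for K36M over WT. Of 21 smooth muscle genes, 11 were lower and 0 higher, against a K36M median of 0.04. *Cxcl12* was at 169 in Ctrl with a log2 ratio of -3.51 in the knockdown, *Ogn* had -4.88 and *Cebpd* -2.33, and for *Rspo2* and *Sfrp2* the knockdown library held 1 and 5 reads against 409 and 3810 in Ctrl. *Dcn* was not among them, with 0.67. Of interferon-stimulated genes, of which 6 of 35 were lower in K36M, 31 of 33 measured were lower in the knockdown, with a median log2 ratio of -3.97. Of the 12 replication genes higher in K36M, 0 were higher in the knockdown. Of the 186 genes higher in all K36M pairs, 88 were measured at RPKM 1 or more in the knockdown pair, 36 of them over 2-fold higher and 25 over 2-fold lower.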

How the data were processed

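RNA-Seq libraries of mouse brown preadipocytes were analysed, 1 per condition, from 14 of the 34 samples of the series. RPKM values for 29082 RefSeq transcripts per library were deposited by the authors. The RNA-Seq aligner and counter were not given in the sources used here. The submitters' processing notes name CASAVA 1.8.2, SICER and mm9 without assigning roles.

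Symbols were matched by RefSeq accession to a GRCm38.p6 gene table for 28436 transcripts (97.8%), and other rows kept their identifier. Because RPKM counts whole reads, the reads behind 26945 of 26946 transcripts seen in at least 2 libraries (99.9963%) could be recovered, together with each library's total. A count test was not run, since no condition has replicates. Ratios were taken without a pseudocount. Genes at or above an RPKM of 1 in either library were kept, and a ratio over 2 was called. A library at 0 was set to 3 reads for ranking only. Exact 95% counting intervals used the recovered reads, and their computation was tested on simulated counts. PCR duplicates are not known, so the intervals cover counting error only.

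Members and gene lists were chosen with earlier results of these data known. Genes named were the 12 highest and 12 lowest ratios at RPKM 10 or more, the 6 largest RPKM differences per direction, up to 6 genes per list, the genes of H3K36 and H3K27 methylation, the adipocyte genes named in the study, and the 5 genes per direction with the largest smallest ratio over the 5 pairs, from which the text takes a part, and some items are not reported here. *H3f3a*, *Nr3c1*, *Ucp1*, *Cidea*, *H2-Q7* and the genes in runs of neighbours were added after their values were seen. Alternatives were other minimums, pseudocounts, scaling, transcript choice, thresholds and the second control library. Promoters were available for 9351 members (76.4%). Python 3.11.15, pandas 2.3.3, NumPy 2.4.6, SciPy 1.17.1 and Matplotlib 3.10.9 were used.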

Additional observations from a re-analysis of the deposited data

Results flagged for a closer look

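For 11 named genes lower in K36M at Day 0 and at RPKM 10 or more on both days, the K36M library was over 2-fold higher than WT at Day 2, and with no minimum there were 25 such genes. The log2 ratios at Day 2 were 3.27 for *Ccn2*, 3.27 for *Sfrp1*, 2.50 for *Ccl2*, 2.13 for *Timp3*, 1.83 for *Thbs2*, 1.63 for *Cdkn2b*, 1.59 for *Thbs1*, 1.51 for *Col3a1*, 1.49 for *Col1a1*, 1.46 for *Ly6a* and 1.42 for *Id3*. With 1 library per condition the difference between the days was not tested. Over all genes at RPKM 10 or more on both days, 40 of 163 lower at Day 0 were over 2-fold higher at Day 2 and 21 were lower again, whereas 3 of 84 higher at Day 0 turned and 35 were higher again.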

How the results depend on the processing

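No paired analysis was possible because each condition has 1 library, and for the same reason no replicate could be left out. The counts of genes higher and lower, 615 and 779, were 2640 and 2150 with any RPKM above 0, 225 and 395 with RPKM of at least 5 in either library, and 308 and 469 with at least 1 in both. They were 282 and 485 with 1 added to each RPKM, 311 and 494 with the counting interval wholly past 2-fold, and 275 and 379 at 3-fold. With 0.1 added they were 568 and 741, with K36M rescaled by the median ratio 531 and 875, and with the other choice of transcript 612 and 780. The rescaling moved the split from 44.1% to 37.8% higher among called genes. Against Ctrl in place of WT the counts were 2332 and 1173 and the median log2 ratio was 0.28, and 367 genes were lower against both controls. The cause was not tested.

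Of the 153 named genes, 131 were called, and none of the 131 changed direction under the other pseudocounts, the rescaling or the other transcript. Against Ctrl, 18 of the 131 did. Ctrl was listed at 0 for *Cfd*, and for the other 17 the log2 ratios were 3.49 for *Saa3*, 2.80 for *Adipoq*, 2.78 for *Lcn2*, 1.41 for *Timp3*, 1.32 for *Lpl*, 1.24 for *Ptx3*, 1.0995 for *Il33*, 1.04 for *Ccl2*, 0.76 for *Gbp2*, 0.55 for *Irx1*, 0.36 for *Samd12*, 0.32 for *Fabp4*, 0.31 for *Serpina3c*, 0.29 for *C1s1*, 0.14 for *Nfib*, -0.13 for *Thy1* and -0.61 for *Prl2c3*. Among named genes that were not called, *Actb*, *Ash1l*, *Cdkn2a*, *Cebpb*, *Ezh2* and *Nr3c1* also lay on the other side of 0. Of the 22 list medians described, 9 turned, to 1.02 for chemokines and cytokines, 1.09 for interferon-stimulated genes, 0.65 for MHC class I, -0.82 for mitosis, -0.0232 for Hox genes, -0.0678 for reference genes, 0.12 for adipocyte genes, 0.18 for regulators that oppose adipogenesis and 0.22 for other developmental homeobox genes. Depth limited the genes with few reads: for 44 genes called higher and 43 called lower, no counting interval excluded an equal level. Reads were not recovered for 4 members, which therefore had no interval.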
